A study of Mus musculus with 16 samples.

Results

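Integrins and laminins were described here as 31 genes, made up of 13 integrin alpha subunit genes, 8 integrin beta subunit genes and 10 laminin chain genes. Their regions were the listed ATAC-seq peaks whose centre had the start site of one of these genes as its nearest protein-coding start site. This rule gave 201 of the 80367 listed peaks, 81 at integrin alpha genes, 46 at integrin beta genes and 74 at laminin genes. It used position only and no measured value, although both lists had already been limited to peaks that differed between the 2 cell populations.

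Integrins are cell surface receptors built of 1 alpha and 1 beta subunit that tie the cytoskeleton to the extracellular matrix or to other cells. The alpha subunit largely sets the ligand, which can be collagen, laminin, or proteins with an Arg-Gly-Asp (RGD) sequence such as fibronectin and vitronectin. Laminins are secreted trimers of an alpha, a beta and a gamma chain and are the main self-assembling component of basement membranes. In lung epithelium, basal surfaces rest on laminins and are held by laminin receptors such as alpha3 beta1, alpha6 beta1 and alpha6 beta4, whereas circulating and neural cells use other pairs, alpha4 beta1 among them.

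The cells came from small cell lung cancer (SCLC) tumors of *TKO;Hes1* GFP/+ mice. These mice carry floxed alleles of *p53*, *p130* and *Rb*, which are removed in the lung by an adenovirus that expresses Cre from the CMV promoter, a promoter not restricted to one cell type, and GFP is expressed from 1 *Hes1* allele. Both groups therefore came from mice with the same alleles and the same virus, and no group of untreated or wild-type cells was included. Whether every sorted cell carried the deletions was not tested here. Hes1-GFP positive cells (GFP-high, non-neuroendocrine or non-NE) were compared with Hes1-GFP negative cells (GFP-neg, neuroendocrine or NE), sorted from the pooled tumors of each mouse. For sorting, dead cells were labelled with DAPI and the suspension was stained for CD45, CD31 and TER-119, markers of leukocytes, endothelial cells and erythroid cells that serve to leave those cells out. CD24, which the paper describes as a marker for positive selection, was stained as well. The gates themselves were not analysed here. The labels give 8 libraries on 2 lanes each, that is 4 pairs from 3 mice, with 2 of the pairs being technical replicates from 1 mouse.

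ATAC-seq marks accessible chromatin through insertion of sequencing adaptors by the Tn5 transposase. The deposited tables give, for each peak, a mean normalised read count taken across the libraries, a log2 fold change in which positive values are higher in GFP-high cells, the standard error (SE) of that change, and an adjusted p from the DESeq2 Wald test. Peaks higher in GFP-high cells (40828) are called opened here and those lower in GFP-high cells (39539) closed. No value per library was at hand, so the depth of the libraries is unknown and the spread between mice enters only through the SE. Every listed peak has an adjusted p under 0.001 and a log2 fold change beyond 1 in size, and peaks within those limits were not analysed here. A site that is open in more of the cells and a site that is more open in each cell cannot be told apart in sorted bulk populations. Of the markers of the populations, 64 of 75 listed peaks at NE genes were closed and 37 of 47 at club cell genes were opened.

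Of the 201 peaks, 110 were opened and 91 closed, an opened share of 54.7% (95% Wilson interval 47.8 to 61.5%, counting error only). Among all listed peaks 50.8% were opened, a share inside that interval. It also lay inside the interval of 7 of the 8 groups by role described below, the exception being the gamma chains, where 8 of the 9 opened peaks are those of *Lamc1*. The direction varied from gene to gene: 4 genes had opened peaks only (*Itga2b*, *Itga7*, *Itgb7* and *Lamb2*), 5 had closed peaks only (*Itga4*, *Itgb3*, *Lama1*, *Lama2* and *Lama4*), and 18 had both. No listed peak was assigned to *Itga8*, *Itga10*, *Itga11* or *Itgb2*. Among all 21924 protein-coding genes, 5373 had opened peaks only, 3157 had closed peaks only, 6050 had both and 7344 had none. An opened peak was assigned to 22 of the 31 genes (71.0%, against 52.1% of all 21924 protein-coding genes) and a closed peak to 23 (74.2%, against 42.0%). These genes are long, with a median length of 80.8 kb against 17.4 kb for all protein-coding genes, and had a median of 6 peaks against 1.

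Promoter peaks were also counted by gene. A promoter peak is one assigned to the gene whose centre lay within 1 kb of a start site of that gene. Opened promoter peaks were found at 11 of the 31 genes (35.5%, against 26.5% of all protein-coding genes): *Itga3*, *Itga5*, *Itga6*, *Itga7*, *Itgb4*, *Itgb5*, *Itgb6*, *Lama5*, *Lamb2*, *Lamb3* and *Lamc1*. An opened peak at the start site of *Itga1* is not in this count, since it was assigned to *Gm49395*. Closed promoter peaks were found at 5 (16.1%, against 8.42%): *Itga4*, *Lama1*, *Lama2*, *Lama3* and *Lama4*. No gene had both kinds, which were found together at 162 of all 21924 protein-coding genes. Among the laminin genes, the promoter peaks of the alpha1, alpha2, alpha3 and alpha4 chains were closed and those of the alpha5, beta2, beta3 and gamma1 chains were opened. That of the alpha3 chain lay at the downstream start site of *Lama3*.

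**Figure D1:**
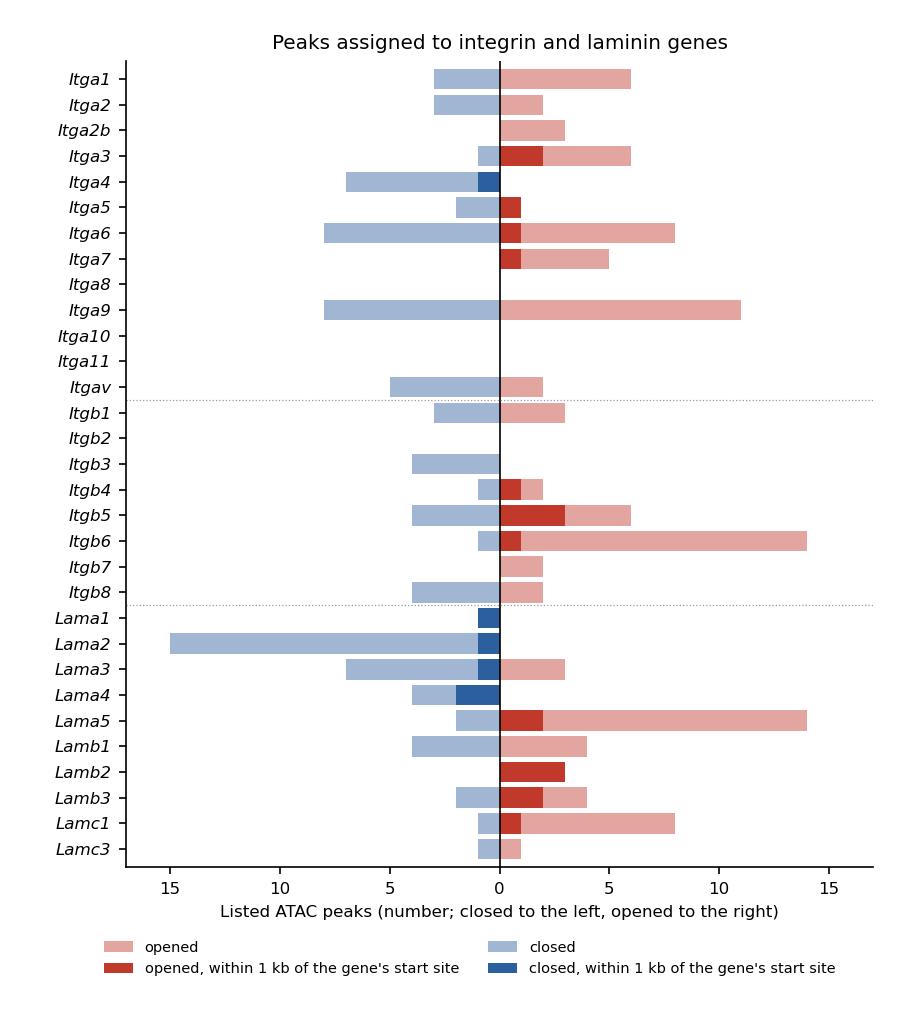
Number of listed peaks per gene, with closed peaks drawn to the left and opened peaks to the right, and promoter peaks in the darker shade. Itgb6 and Lama5 each had 14 opened peaks, and Lama2 had 15 closed peaks and no opened one. No gene had promoter peaks in both directions, against 162 of all 21924 protein-coding genes.

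The sequences below are from the regions on which the description turns, read on the plus strand of GRCm38.p6, the assembly of mm10, and limited to bases outside annotated exons. Capitals mark matches, on either strand, to 6 short cores searched without mismatches: TGANTCA for AP-1, CATTCC for TEAD, TGTTTAC for FOX, CACTTNA for NKX2, TGGGAA for RBPJ and AACCNGTT for GRHL. A match is a run of letters, not a bound site. The first set holds the 3 opened peaks of smallest adjusted p, at *Itgb6*, *Itga9* and *Itga3*, and the one opened most by log2 fold change, at *Lama5*.
Itgb6 chr2:60703473-60703672: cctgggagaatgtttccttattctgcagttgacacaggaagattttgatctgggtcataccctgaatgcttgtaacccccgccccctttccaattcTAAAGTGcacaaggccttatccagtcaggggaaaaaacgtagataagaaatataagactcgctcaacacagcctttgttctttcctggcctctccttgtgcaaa
Itga9 chr9:118741389-118741588: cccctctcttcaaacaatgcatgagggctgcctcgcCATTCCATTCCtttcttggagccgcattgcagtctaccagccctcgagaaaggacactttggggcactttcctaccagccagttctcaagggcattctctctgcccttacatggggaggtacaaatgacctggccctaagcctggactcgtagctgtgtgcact
Itga3 chr11:95089234-95089433: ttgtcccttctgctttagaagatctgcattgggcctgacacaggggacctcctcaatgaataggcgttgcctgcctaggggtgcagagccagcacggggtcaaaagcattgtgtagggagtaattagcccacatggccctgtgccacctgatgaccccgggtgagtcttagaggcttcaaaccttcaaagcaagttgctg
Lama5 chr2:180220254-180220453: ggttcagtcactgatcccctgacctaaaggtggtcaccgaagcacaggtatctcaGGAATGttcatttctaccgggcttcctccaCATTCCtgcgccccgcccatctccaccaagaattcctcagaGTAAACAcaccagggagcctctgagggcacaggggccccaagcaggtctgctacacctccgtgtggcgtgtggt
The *Itgb6* stretch holds an NKX2 core, the *Itga9* stretch holds a pair of TEAD cores that share a base, and the *Lama5* stretch holds a TEAD core on each strand and a FOX core. The *Itga3* stretch holds none of the 6 cores.

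The second set holds the 3 closed peaks of smallest adjusted p, in introns of *Lama2* and *Itgb8* and at the promoter of *Itga4*, and a closed intronic peak of *Itga6*.
Lama2 chr10:27202466-27202665: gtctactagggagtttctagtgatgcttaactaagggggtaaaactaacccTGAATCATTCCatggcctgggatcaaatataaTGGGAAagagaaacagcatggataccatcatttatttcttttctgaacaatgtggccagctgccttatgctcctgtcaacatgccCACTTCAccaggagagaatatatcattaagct
Itgb8 chr12:119189978-119190177: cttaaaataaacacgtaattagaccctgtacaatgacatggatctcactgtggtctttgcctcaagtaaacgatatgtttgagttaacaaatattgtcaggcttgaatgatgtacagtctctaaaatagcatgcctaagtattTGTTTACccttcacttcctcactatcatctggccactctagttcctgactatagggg
Itga4 chr2:79255271-79255425: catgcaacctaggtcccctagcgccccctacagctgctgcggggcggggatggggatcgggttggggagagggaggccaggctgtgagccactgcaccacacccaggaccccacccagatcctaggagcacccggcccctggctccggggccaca
Itga6 chr2:71801753-71801952: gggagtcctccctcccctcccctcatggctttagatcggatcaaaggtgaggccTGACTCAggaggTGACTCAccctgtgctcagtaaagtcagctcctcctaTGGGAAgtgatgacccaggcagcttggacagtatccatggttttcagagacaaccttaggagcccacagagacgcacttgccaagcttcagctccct
The *Itgb8* stretch holds a FOX core. An exon next to the centre of that peak shifted the printed stretch, and the central 200 bp used for the counts holds none of the 6. In the *Lama2* stretch an AP-1 core and a TEAD core overlap, followed by an RBPJ and an NKX2 core. The *Itga6* stretch holds 2 AP-1 cores and an RBPJ core, and the *Itga4* stretch, which ends just before the first base of that gene as annotated, holds none of the 6. The exonic part of that promoter peak is not printed, and the central 200 bp of the whole peak holds an NKX2 core.

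The third set holds stretches outside exons from opened promoter peaks of 3 laminin chains. The *Lamb3* stretch ends at the middle of 3 annotated start sites and lies in an intron of the longest transcript.
Lama5 chr2:180225860-180226013: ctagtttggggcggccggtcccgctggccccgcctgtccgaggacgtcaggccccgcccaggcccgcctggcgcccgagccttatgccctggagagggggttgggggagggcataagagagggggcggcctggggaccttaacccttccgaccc
Lamb2 chr9:108478839-108479038: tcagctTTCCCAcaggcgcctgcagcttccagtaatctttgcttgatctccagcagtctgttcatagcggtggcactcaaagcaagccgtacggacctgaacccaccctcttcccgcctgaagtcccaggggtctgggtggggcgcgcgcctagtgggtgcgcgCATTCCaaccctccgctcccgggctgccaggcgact
Lamb3 chr1:193301837-193301992: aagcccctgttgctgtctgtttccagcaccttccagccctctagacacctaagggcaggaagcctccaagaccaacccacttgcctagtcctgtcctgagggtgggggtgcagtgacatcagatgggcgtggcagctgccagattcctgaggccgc
The *Lamb2* stretch holds an RBPJ and a TEAD core, and the stretches of *Lama5* and *Lamb3* hold none of the 6 cores. With its exonic bases, which are not printed, the central 200 bp of the *Lamb3* peak holds a TEAD and an RBPJ core.

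The laminin-binding alpha subunits, *Itga3*, *Itga6* and *Itga7*, each had an opened promoter peak. Together they had 19 opened and 9 closed peaks, and 8 of the closed peaks belonged to *Itga6*. *Itga3* encodes the alpha3 subunit, the partner of beta1 in epithelial adhesion to laminin. Its promoter peak at chr11:95076562-95077125 had a log2 fold change of 1.96 (SE 0.17, adjusted p 3.35e-30) at a mean of 438 normalised reads, and a second one beside it, at chr11:95076296-95076486, had 1.54 (SE 0.31, adjusted p 1.56e-06). A larger difference lay 12.5 kb upstream, in the intergenic peak at chr11:95088848-95089821, with a log2 fold change of 4.69 (SE 0.29, adjusted p 6.53e-55). The 1 closed peak of *Itga3*, 16.6 kb upstream, rested on a mean of 6.8 normalised reads and had a log2 fold change of -3.99 with an SE of 1.00.

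*Itga7*, known for its role as the laminin receptor of muscle, had 5 opened peaks within 4.9 kb of its start sites and no closed one. The promoter peak at chr10:128933610-128933880 had a log2 fold change of 2.22 (SE 0.22, adjusted p 2.51e-23), and the peak 3.6 kb upstream one of 4.63 (SE 0.34, adjusted p 5.34e-41). A closed peak in its body, with a log2 fold change of -3.28, lay nearer to the start site of *Mettl7b* and was not assigned to it.

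*Itga6* encodes the alpha6 subunit, which pairs with beta1 or with beta4 of hemidesmosomes, and was mixed, with 8 opened and 8 closed peaks that changed direction 8 times along the locus. The broad promoter peak at chr2:71786638-71787748 was opened with a log2 fold change of 1.34 (SE 0.17, adjusted p 2.48e-14) at 639.8 normalised reads, and the upstream opened peak of smallest adjusted p, 47.3 kb away, had 3.59 (SE 0.27, adjusted p 1.01e-39). Inside the gene, between 3.4 and 32.1 kb from the start site, 6 of 8 peaks were closed, with log2 fold changes between -2.99 and -2.02. The closed peak of smallest adjusted p, whose sequence is given above, was one of these, at -2.26 (SE 0.34, adjusted p 1.48e-10). The opened and closed peaks nearest to each other, 27.2 and 27.6 kb into the gene, were 455 bp apart from centre to centre. An AP-1 core was present in the central 200 bp of 4 of the 8 closed peaks and in none of the 8 opened ones. Over all listed peaks the shares were 26.4% of closed and 10.6% of opened peaks.

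The collagen-binding alpha subunits differed in how much they carried. *Itga1* and *Itga2*, neighbours on chromosome 13, had 6 opened and 3 closed, and 2 opened and 3 closed peaks. The *Itga1* peak with the smallest adjusted p, 4.5 kb upstream at chr13:115106191-115106691, had a log2 fold change of 3.45 (SE 0.23, adjusted p 1.00e-49). All 9 *Itga1* peaks lay upstream of the gene, 7 of them more than 100 kb away and the farthest at 585.6 kb, where the nearest start site says little about the gene a site acts on. The farthest was also the closed peak of smallest adjusted p, with a log2 fold change of -2.75 (SE 0.36, adjusted p 2.32e-13). An opened peak (log2 fold change 1.22, SE 0.18) that covers the start site of *Itga1* was assigned to *Gm49395*, whose start site is nearer to its centre. The *Itga2* peak with the smallest adjusted p was closed, with a log2 fold change of -1.71 (SE 0.23, adjusted p 3.22e-13), and its centre lay in an intron of *Itga1*. Its opened peak with the smallest adjusted p, 1.7 kb upstream, had a log2 fold change of 1.52 (SE 0.31, adjusted p 2.37e-06). Inside *Itga2* lay 4 further peaks nearest to *Mocs2*, 2 of them opened and more strongly supported than any assigned one, at 4.09 (SE 0.27, adjusted p 1.11e-48) and 4.22 (SE 0.48, adjusted p 1.13e-17), and 2 closed, at -3.18 and -2.53. Inside *Itga1*, peaks nearest to *Pelo* were closed at -2.91 (SE 0.27, adjusted p 1.48e-26) and opened at 4.61 (SE 1.23), and another nearest to *Gm49395* was closed at -1.89.

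*Itga10* and *Itga11*, the other collagen-binding subunits, had no assigned peak, yet listed peaks lay inside both genes. Within *Itga11* there were 7, all opened and nearest to the start site of *Fem1b*, with log2 fold changes between 1.50 and 3.92. Within *Itga10* there were 2, both opened and nearest to *Ankrd35*. These 9 peaks enter the counts only when peaks are assigned by gene body.

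The RGD-binding alpha subunits had 6 opened and 7 closed peaks. *Itga5*, the fibronectin receptor subunit, had an opened promoter peak at chr15:103366421-103366946 with a log2 fold change of 2.39 (SE 0.21, adjusted p 1.17e-28), and 2 closed intronic peaks 7.9 and 11.2 kb downstream with log2 fold changes of -2.37 and -1.45. *Itgav*, the alpha subunit shared by the vitronectin receptors and by the receptors that activate latent TGF-beta, had 2 opened and 5 closed peaks and no promoter peak. Its closed peak of smallest adjusted p, at chr2:83731652-83731885, had a log2 fold change of -3.27 (SE 0.39, adjusted p 2.69e-16), and its opened one, 4.98 kb into the gene, 1.62 (SE 0.27, adjusted p 4.46e-09). *Itga2b*, a platelet subunit, had 3 opened peaks, led by an intronic one at chr11:102466918-102467620 with a log2 fold change of 2.30 (SE 0.15, adjusted p 2.23e-54), and the other 2 lay in introns of *Gpatch8*. An opened peak in its body, at 1.40 (SE 0.18), was nearest to *Fam171a2*. *Itga2b* lies on chromosome 11, as do *Itga3*, *Itgb3* and *Itgb4*, and 71.1% of all listed peaks of that chromosome were opened. No peak was listed for *Itga8*, whose nearest listed peak was 95.4 kb from its start site.

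*Itga4* and *Itga9* form a subfamily of their own by sequence and share ligands such as VCAM-1, and they went apart. All 7 peaks of *Itga4*, the leukocyte and neural crest alpha4 subunit, were closed. Its promoter peak at chr2:79255271-79255993 had a log2 fold change of -2.76 (SE 0.25, adjusted p 2.11e-27) and was the only closed promoter peak among the 21 integrin genes. The other 6 lay 106 to 158 kb upstream, with mean counts from 8.0 to 22.2 normalised reads and log2 fold changes between -3.87 and -2.12.

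*Itga9* had 11 opened and 8 closed peaks over 243.8 kb, with 8 changes of direction along the locus and no promoter peak. Its opened peaks were among those with the smallest adjusted p of all 201: the intronic peak at chr9:118741104-118741875 had a log2 fold change of 4.58 (SE 0.23, adjusted p 5.25e-82), that at chr9:118699747-118700368 one of 3.62 (SE 0.24, adjusted p 1.16e-50), and that at chr9:118647457-118648041 one of 5.0 (SE 0.33, adjusted p 9.47e-50). Its closed peak of smallest adjusted p, at chr9:118768954-118769237 over an exon, had a log2 fold change of -3.61 (SE 0.41, adjusted p 5.47e-18). A further 7 listed peaks in the 3-prime part of the gene, 5 of them closed, were nearest to *Ctdspl*.

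**Figure D2:**
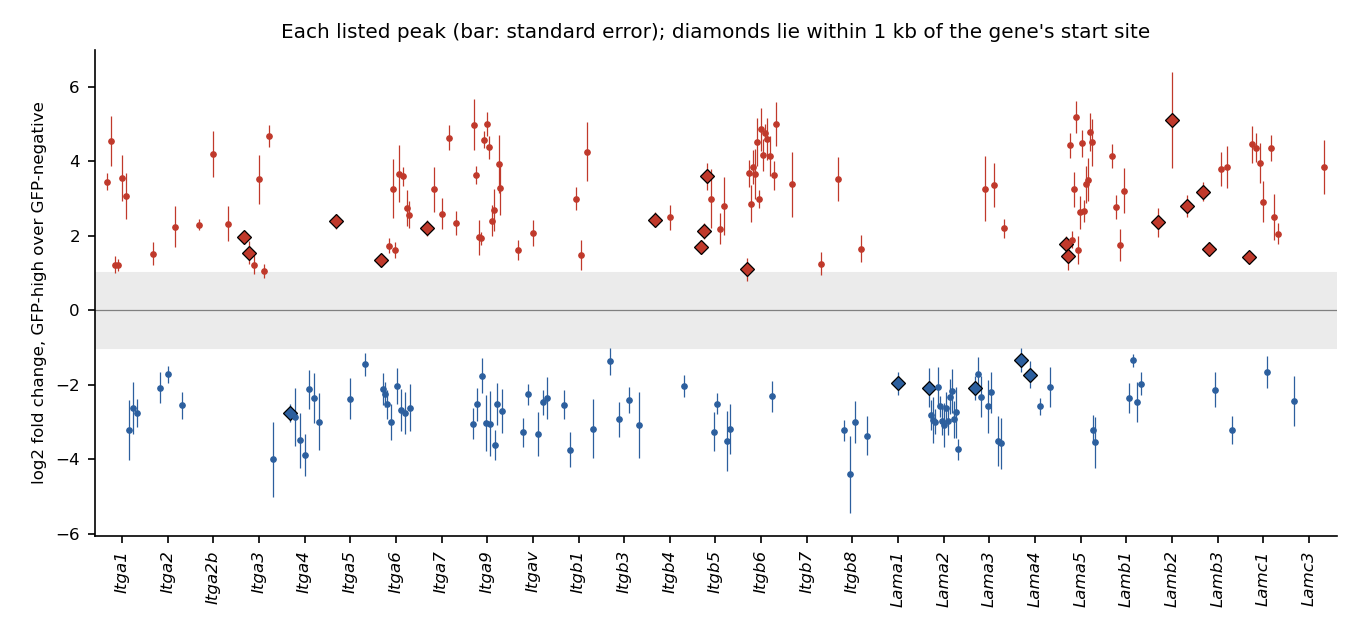
Log2 fold change (GFP-high against GFP-neg) for each of the 201 peaks, by gene and ordered within a gene by distance from the start site, with the SE as a bar and promoter peaks as diamonds. The grey band marks changes under 1 in size, which the lists do not hold. The opened peaks of Itgb6 lie between 1.10 and 5.0 and those of Lama5 between 1.45 and 5.19, while every peak of Lama2 lies between -3.73 and -2.06.

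Of the integrin beta genes, 29 of 46 peaks were opened (63.0%, 95% Wilson interval 48.6 to 75.5%, which holds the 50.8% of all listed peaks), and 14 of the 29 belonged to *Itgb6*. *Itgb6* is the epithelial beta6 subunit, which pairs only with alphav and is known for activating latent TGF-beta. The intronic peak at chr2:60703298-60703848 had the smallest adjusted p of all 201 peaks, with a log2 fold change of 4.77 (SE 0.23, adjusted p 9.92e-96), a 27.3-fold difference at a mean of 303 normalised reads. Its opened peaks ran from 76.7 kb upstream of the first start site into the gene, and 13 of the 14 had a log2 fold change of at least 2.87. The remaining opened peak was the promoter peak at the second, internal start site, at 1.10 (SE 0.31, adjusted p 0.000858). No listed peak lay within 1 kb of the first start site, the closest being an opened one 2.2 kb inside the gene at 3.67 (SE 0.37, adjusted p 2.80e-22). The 3 opened peaks upstream of the gene include 2 in introns of *Rbms1*. The single closed peak, toward the end of the gene, had a log2 fold change of -2.31 (SE 0.41, adjusted p 4.47e-08). Without *Itgb6* the opened share of the beta genes was 48.4%.

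*Itgb4*, the hemidesmosomal beta4 subunit that pairs with alpha6 alone, had an opened promoter peak at chr11:115974360-115975295 with a log2 fold change of 2.43 (SE 0.20, adjusted p 9.78e-32). Upstream of the gene, in an intron of *Sap30bp*, it had a closed peak (log2 fold change -2.03, SE 0.30, adjusted p 7.92e-11) and an opened peak (2.49, SE 0.33, adjusted p 4.34e-13) whose centres were 699 bp apart. Another opened peak over an exon of *Itgb4*, at 2.33 (SE 0.22), was nearest to *Galk1*.

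*Itgb5*, a partner of alphav in vitronectin binding, had 6 opened and 4 closed peaks. The promoter peak at its first start site had a log2 fold change of 1.70 (SE 0.20, adjusted p 1.82e-16). At the internal start site, 62.3 kb from the first, there were 2 opened promoter peaks, with log2 fold changes of 2.13 (SE 0.21, adjusted p 1.36e-22) and 3.60 (SE 0.37, adjusted p 2.22e-21), the latter with a TEAD core. Its closed peak of smallest adjusted p, at chr16:33879018-33879328, had a log2 fold change of -2.50 (SE 0.28, adjusted p 2.02e-18) and lay 868 bp from an opened one. Farther into the gene, 4 peaks were nearest to *Umps*, of which 3 were opened, led by one at 4.57 (SE 0.32, adjusted p 1.26e-45), and 1 was closed at -2.82.

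*Itgb1*, the common partner of most alpha subunits, had 3 opened and 3 closed peaks and none at its promoter. Its nearest listed peak was closed and lay 18.2 kb inside the gene, and the closed peak of smallest adjusted p had a log2 fold change of -3.74 (SE 0.47, adjusted p 1.20e-14). Its opened peak with the smallest adjusted p, 31.4 kb upstream at a non-coding start site, had one of 3.00 (SE 0.32, adjusted p 6.93e-20). *Itgb3*, the platelet and endothelial beta3 subunit, had 4 closed intronic peaks and no opened one, the most strongly supported at -2.40 (SE 0.34, adjusted p 1.37e-11). *Itgb8*, which like beta6 activates latent TGF-beta, had 2 opened and 4 closed peaks. The closed intronic peak at chr12:119189759-119190226 had a log2 fold change of -3.22 (SE 0.28, adjusted p 2.32e-29), and the opened one with the smallest adjusted p 3.52 (SE 0.59, adjusted p 1.24e-08). *Itgb7*, a leukocyte subunit, had 2 opened peaks, one over an exon at 1.25 (SE 0.31, adjusted p 9.83e-05) and one upstream at a mean of 7.5 normalised reads. No peak was listed for *Itgb2*, the leukocyte beta2 subunit, with the nearest listed peak 40.1 kb from its start site. The leukocyte marker genes, read for comparison, had 15 opened and 11 closed peaks, of which 11 and 5 were at *Ptprc*, the gene of CD45. The *Ptprc* peak of smallest adjusted p lay 310 kb from the start site. The stain for CD45 would remove leukocytes from both populations, and their part in these values was not tested.

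The laminin genes had 37 opened and 37 closed peaks. The alpha chain genes had 17 opened and 29 closed peaks (37.0% opened, 95% Wilson interval 24.5 to 51.4%), the beta chain genes 11 and 6 (64.7%, 41.3 to 82.7%), and the gamma chain genes 9 and 2 (81.8%, 52.3 to 94.9%), against 50.8% of all listed peaks. *Lama2* supplied 15 of the 29 closed alpha chain peaks, and without it the alpha chains had 17 opened and 14 closed peaks. *Lama5*, the alpha chain of the laminins found broadly under epithelia, had 14 opened and 2 closed peaks. Its promoter peak at chr2:180225562-180226013 had a log2 fold change of 1.78 (SE 0.22, adjusted p 1.51e-14), and a second one 758 bp into the gene 1.45 (SE 0.38, adjusted p 0.000243). Larger differences lay on either side of the start site. The intronic peak at chr2:180220237-180220472 had the largest log2 fold change of all 201 peaks, 5.19 (SE 0.43, adjusted p 1.22e-32), and the peak 2.4 kb into the gene had the smallest adjusted p of the locus, at 4.43 (SE 0.35, adjusted p 5.02e-36). Upstream, 3 intergenic peaks up to 10.1 kb away had log2 fold changes of 3.24, 4.48 and 3.38. Each held a TEAD core, against 18.1% of all opened listed peaks. The 2 closed peaks lay 19.8 and 24.9 kb into the gene, beyond all opened ones, at -3.20 (SE 0.39, adjusted p 1.95e-15) and -3.53 (SE 0.68).

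*Lama2*, the alpha chain of the laminin of muscle and peripheral nerve, was the opposite, with 15 closed peaks over 542.9 kb. The intronic peak at chr10:27202366-27202766 had a log2 fold change of -3.73 (SE 0.28, adjusted p 1.94e-39), the smallest adjusted p among the 91 closed peaks and a 13.2-fold difference. Its promoter peak at chr10:27616664-27616992 had a log2 fold change of -2.08 (SE 0.52, adjusted p 0.000147) at only 18.8 normalised reads. Beyond the assigned peaks, 4 more in the last part of the gene, nearest to *Arhgap18*, were closed as well. Without *Lama2* the opened share of the laminin genes was 62.7%, and without *Lama5* 39.7%.

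*Lama4*, the alpha chain of endothelial basement membranes, had 4 closed peaks and no opened one. Its promoter had a pair, at -1.34 (SE 0.32, adjusted p 6.16e-05) and -1.73 (SE 0.36, adjusted p 5.52e-06), and an intronic peak at chr10:38984360-38984757 had a log2 fold change of -2.57 (SE 0.23, adjusted p 4.95e-27). The endothelial marker genes had 17 opened and 52 closed peaks in the same comparison, 23 of the closed ones at *Cdh5*, where the peak of smallest adjusted p lay 475 kb upstream of the start site. The stain for CD31 would remove endothelial cells from both populations, and their part in the *Lama4* and *Itgb3* values was not tested. *Lama1*, a chain of early embryonic basement membranes, had 1 listed peak, the closed promoter peak at chr17:67697030-67697347 with a log2 fold change of -1.96 (SE 0.31, adjusted p 1.01e-09).

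*Lama3* encodes the alpha3 chain of the laminin of hemidesmosomes and has 2 annotated protein-coding start sites 170.4 kb apart, which give a long and a short transcript. The directions followed the start sites. The 3 peaks nearest to the upstream site were all opened, with log2 fold changes of 3.27 (SE 0.88), 3.35 (SE 0.59) and 2.20 (SE 0.25, adjusted p 5.82e-18). The 7 nearest to the downstream site were all closed, between -3.56 and -1.71, and included the promoter peak 157 bp upstream of it at -2.08 (SE 0.32, adjusted p 4.11e-10). An AP-1 core was present in 3 of the 7 closed peaks, against 26.4% of all closed listed peaks. The next 3 listed peaks toward the end of the gene, nearest to *Ttc39c*, were closed too.

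*Lamb3*, the beta3 chain, which assembles with the alpha3 chain, had opened promoter peaks at chr1:193301837-193302262, with a log2 fold change of 3.18 (SE 0.25, adjusted p 2.63e-34), and at chr1:193301266-193301769, with 1.65 (SE 0.20, adjusted p 5.68e-16). Both lay at the internal start sites, the last of which is 94.5 kb from the first. Its closed peak of smallest adjusted p, 28.2 kb downstream of the last start site, was at -3.22 (SE 0.37, adjusted p 7.66e-17). Another 3 peaks inside the longest transcript, nearest to *Hsd11b1* or *Camk1g*, were closed, between -2.93 and -2.34.

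*Lamb2*, the beta2 chain of mature basement membranes, had 3 peaks, all opened and all within 1 kb of the start site. They had log2 fold changes of 2.79 (SE 0.29, adjusted p 3.11e-20) at chr9:108478754-108479124, 2.36 (SE 0.40, adjusted p 1.25e-08) at the start site, and 5.10 in a peak with a mean of 5.5 normalised reads and an SE of 1.28. *Lamb1*, its counterpart with a broad distribution, had no promoter peak, and its directions followed position. The 4 opened peaks lay from 8.5 kb upstream to 18 kb downstream of the start site and were led by one at chr12:31271137-31271967 with 4.14 (SE 0.31, adjusted p 4.40e-38). The 4 closed peaks lay between 28.7 and 37.7 kb, led by one at -1.34 (SE 0.17, adjusted p 4.08e-14).

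*Lamc1*, the gamma chain of most laminins, had 8 opened and 1 closed peak. The promoter peak at chr1:153332094-153333348, with 604 normalised reads on average, had a log2 fold change of 1.44 (SE 0.16, adjusted p 1.27e-18). The opened peak with the smallest adjusted p lay 34.6 kb upstream at 4.35 (SE 0.36, adjusted p 2.35e-32), and the closed one 32.2 kb into the gene at -1.66 (SE 0.43, adjusted p 0.000237). *Lamc3* had 1 opened and 1 closed peak, at 3.86 (SE 0.72, adjusted p 2.96e-07) and -2.43 (SE 0.66, adjusted p 0.000441).

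**Figure D3:**
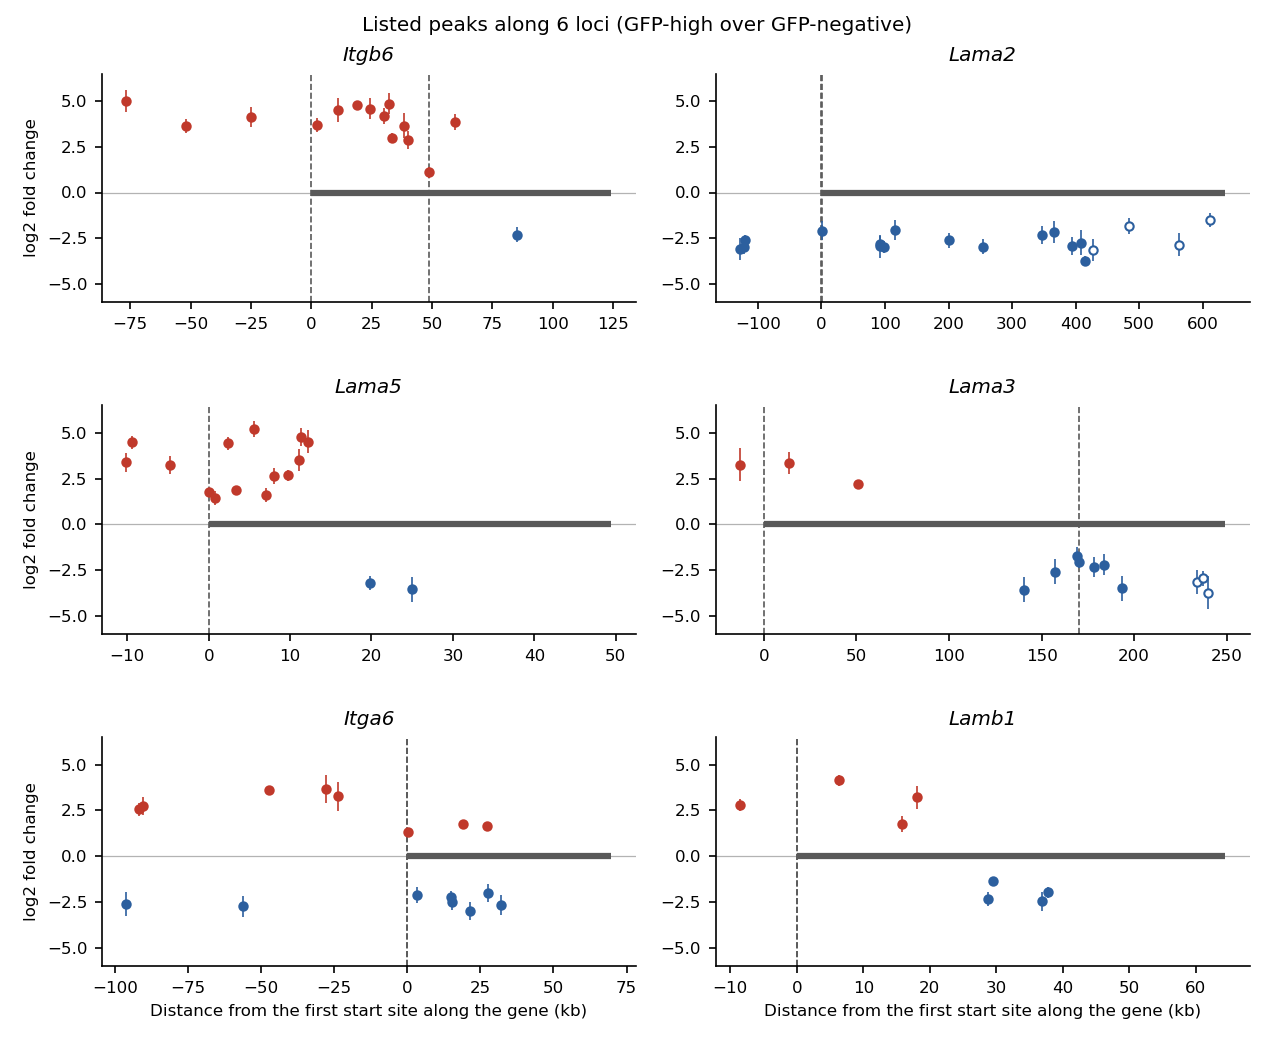
Log2 fold change (with SE) of the listed peaks along 6 loci, against distance in kb from the first protein-coding start site in the direction of the gene. Dashed lines mark start sites, the grey bar the gene from the first start site to its end, and hollow points peaks inside the gene that were nearest to another gene. Lama2 has closed peaks only, Lama3 changes from opened to closed between its 2 start sites, Lama5 and Lamb1 change once along the gene, and Itga6 alternates.

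In size of change, the opened peaks had a median log2 fold change of 3.04 against 2.92 for all opened peaks, and the closed ones -2.61 against -2.66. Opened promoter-class peaks, within 1 kb of any annotated start site, had a smaller median (2.18 in 20 peaks) than the other opened peaks (3.31 in 90), a gap also present among all opened peaks (1.71 against 3.25). Promoter-class peaks were 18.2% of opened and 6.59% of closed integrin and laminin peaks, against 22.3% and 9.68% of all listed peaks. Introns held 58.2% of opened and 65.9% of closed ones, against 43.6% and 50.1%. Peaks between genes made up 22.7% and 18.7%, against 30.6% and 36.7%. Over exons lay 1 opened peak, at *Itgb7*, and 8 closed ones. Opened peaks lay closer to their start site, with a median of 11.9 kb against 31.4 kb for closed ones, and the same order was seen over all listed peaks (17.5 and 42.4 kb).

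The closed and the opened peaks differed in the cores that they held. In the central 200 bp, an AP-1 core was found in 29 of 91 closed peaks (31.9%, 95% Wilson interval 23.2 to 42.0%) and in 13 of 110 opened ones (11.8%, 7.04 to 19.2%). The reverse held for TEAD, with 6 closed peaks (6.59%, 3.06 to 13.6%) and 24 opened ones (21.8%, 15.1 to 30.4%). Over all listed peaks the shares were 26.4% of closed and 10.6% of opened peaks for AP-1, and 8.78% and 18.1% for TEAD, so the integrin and laminin peaks lay near those of their lists. Of the 24 opened peaks with a TEAD core, 12 were at laminin genes (32.4% of their 37 opened peaks), and 5 of the 12 at *Lama5*. Of the 29 closed peaks with an AP-1 core, 14 were at integrin alpha genes, 4 of them at *Itga6* and 3 at *Itga4*, and 4 were at *Lama2*. FOX cores were found in 7.27% of opened and 13.2% of closed peaks (6.85% and 9.70% of all listed), NKX2 cores in 18.2% and 13.2% (18.6% and 14.9%), RBPJ cores in 19.1% and 19.8% (20.7% and 16.3%), and GRHL cores in 2.73% and 3.30% (3.47% and 1.61%).

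**Figure D4:**
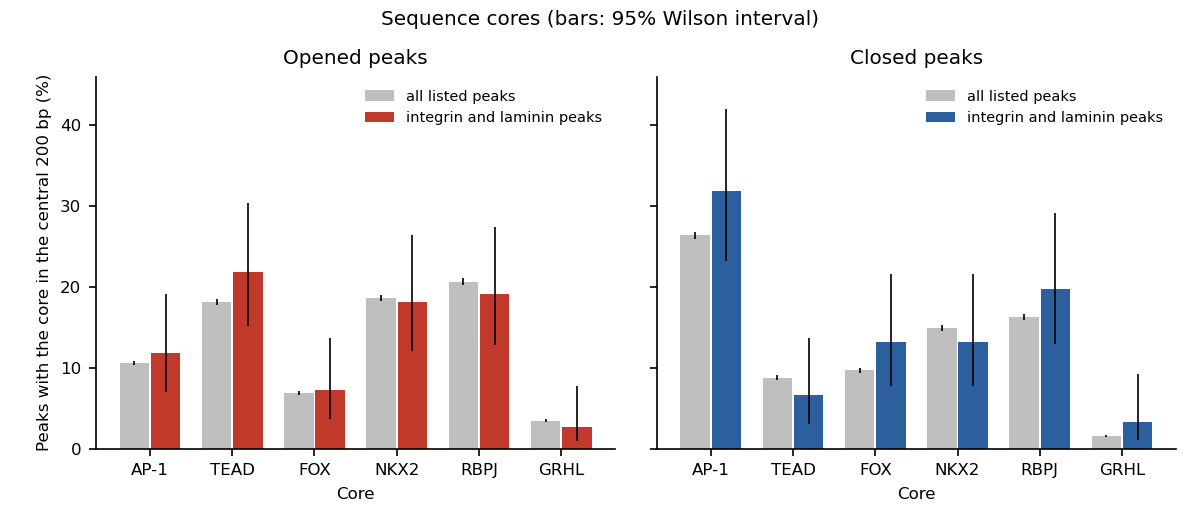
Share of peaks with each core in the central 200 bp, for opened (left) and closed (right) peaks, in integrin and laminin peaks (colour) and in all listed peaks (grey), with 95% Wilson intervals. AP-1 was found in 31.9% of the closed and 11.8% of the opened integrin and laminin peaks, and TEAD in 6.59% and 21.8%, and the grey shares lie within the intervals of the coloured ones.

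Genes that act with integrins were read from lists. The 21 genes of the adhesion machinery, which link integrins to actin and to kinase signalling, had 170 opened and 93 closed peaks (64.6% opened, against 50.8% of all listed peaks). An opened promoter peak was present at 13 of them and a closed one at 2, against 26.5% and 8.42% of all protein-coding genes. Its peak with the smallest adjusted p was nearest to *Tns1*, a tensin, 80.3 kb upstream of its start site, with a log2 fold change of 4.35 (SE 0.20, adjusted p 1.52e-98). *Tns1* supplied 31 and *Tns3* 36 of the 170 opened peaks. The 14 basement membrane and laminin-linked genes had 55 opened and 32 closed peaks (63.2% opened, against the same 50.8%), led by *Dag1*, the dystroglycan that binds laminin, at 4.54 (SE 0.25, adjusted p 1.90e-68) 11.5 kb upstream. The 9 genes of other integrin ligands had 47 opened and 50 closed peaks. The one of smallest adjusted p had 4.17 (SE 0.25, adjusted p 3.72e-59) but lay 331 kb upstream of its nearest start site, that of *Thbs1*, a thrombospondin. All 10 peaks of *Vcam1*, the ligand of alpha4 and alpha9 integrins, were closed, and all 7 of *Icam1*, a ligand of beta2 integrins, were opened, 3 of them at its promoter. Fibroblast and mural markers had 16 opened and 13 closed peaks.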

How the data were processed

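The authors aligned the paired reads to mm10 with Bowtie2 2.3.4.1, removed duplicates, called narrow peaks with MACS2 and merged the peaks of all samples. The deposited signal per peak is the authors' mean, across the libraries, of read counts after DESeq2 1.28.1 size-factor scaling. The authors deposited the log2 fold change (GFP-high against GFP-neg) with its standard error, also on the log2 scale, a score (the Wald statistic), and the p-value with its Benjamini-Hochberg adjusted p-value. These columns are the authors' own comparison and the files hold no value per library, so they were described and not refitted, and no test was run here. How lanes and pairs from 1 mouse were combined is not given in the sources used here.

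Peaks were assigned with Python 3.11.15, numpy 2.4.6 and pandas 2.3.3 to the nearest start site of a protein-coding transcript of a protein-coding gene in GENCODE M21 basic (GRCm38.p6). Positions are 1-based. Classes came from the centre of the peak, as promoter (within 1 kb of any start site), exon, intron or intergenic. Printed sequence leaves out exons of the comprehensive M21 annotation. Intervals are Wilson intervals at 95% from scipy 1.17.1 and cover counting error only. Assignment and core search were tested on simulated data. HOMER was not used. All 31 genes were named, with their promoter peaks and, in each direction, the peak of smallest adjusted p. Names outside this rule were picked once values were known. The genes, the lists (integrin and laminin roles, adhesion machinery, basement membrane and laminin-linked genes, other integrin ligands, and markers of NE, club, leukocyte, endothelial, fibroblast and mural cells) and the tables were chosen with earlier results of these data known. Some alternatives (without single genes or chromosome 11, or a minimum of 20 normalised reads) were added after seeing the data. A result on further subunits is not reported here.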

Additional observations from a re-analysis of the deposited data

How the results depend on the processing

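No paired analysis was possible because the deposited files hold one comparison over all libraries and no value per library, and for the same reason no library could be left out. Of 96 values under an alternative, 83 stayed within the 95% interval of a share, the median SE of a median or 1.5 times a count. These include the values with start sites of every transcript of protein-coding genes, which again gave 201 peaks and left every value unchanged. Intervals of shares from few peaks are wide, so staying inside them says little. The values are counts, shares and medians of lists of 1 direction, which cannot change sign. With start sites of any gene type, 131 peaks remained assigned, 65.6% of them opened, against 50.8% of all listed peaks (68.8% at laminin genes, against 39.8% with peaks within 10 kb of the gene body and 50.0% before), and 8 genes had opened peaks only, as did 8 with peaks within 10 kb of the gene body. With an adjusted p under 1e-05, 62.3% were opened (66.1% at integrin alpha genes), against 54.4% of all listed peaks. With at least 20 normalised reads, 61.9% were opened, against 55.0%. With a log2 fold change over 2 in size, the median of opened peaks was 3.51. The opened share was 48.4% for integrin beta genes without *Itgb6* and 62.7% for laminin genes without *Lama2*. Without the peaks of chromosome 11, where 71.1% of all listed peaks were opened, it was 53.8%, against 49.4%. With a promoter distance of 3 kb, 30.9% of opened peaks were at promoters (31.8% of all opened peaks), and with the whole peak searched, 30.9% held a TEAD core (25.4% of all opened peaks), against 18.2% and 21.8% before. The causes of these shifts were not tested. Mean counts of 5 to 10 normalised reads limit the precision of the smallest peaks.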
